A study of Saccharomyces cerevisiae with 10 samples.

Results

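The genes described here are those with which budding yeast takes up phosphate, frees it from organic esters outside the cell and stores it as polyphosphate. They were chosen by symbol from a list of 10 genes under control of the transcription factor Pho4, and 8 of the 10 had a named reporter on the array, of 6377 features in all (5315 of them named genes). These were PHO84, PHO89, PHO12, PHM6, SPL2, VTC1, VTC3 and VTC4. PHO5 and PHO11, which encode secreted acid phosphatases, were not analysed here. Each of the 8 had 1 reporter with 2 spots. PHO12 encodes an acid phosphatase nearly identical to that of PHO11 and similar to that of PHO5, so its reporter may also have read their transcripts, and its values are uncertain in that respect.

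In yeast with enough phosphate, the cyclin Pho80 and the kinase Pho85 phosphorylate Pho4 and keep it out of the nucleus. When phosphate is short, the inhibitor Pho81 blocks the kinase, and Pho4, with Pho2, turns on genes for uptake, for secreted phosphatases and for polyphosphate synthesis. The promoters of this pathway, that of PHO5 above all, have long served as models of how nucleosomes and histone acetylation bear on transcription. In yeast, NuA4 places acetyl groups on the H4 and H2A tails of nucleosomes. Epl1 anchors its catalytic module and Eaf1 is the platform on which the other subunits assemble.

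The study comprised 10 two-colour arrays, 2 for each of 5 strains, and on each array amplified RNA of 1 strain was hybridised with that of a reference pool common to all. The 5 strains carried FLAG-tagged Epl1 truncated to the range 1:380, FLAG-tagged Epl1 truncated to 1:485, an eaf1 deletion, HA-tagged Eaf1 with the range 1:982, and FLAG-tagged Epl1 with no truncation in its label, called tagged Epl1 here. Cells were grown to mid-log phase. An HA tag stands in the titles of the eaf1 deletion but not in its source label, and the Eaf1 1:982 label calls it a C-terminal truncation. Neither an untagged strain nor the makeup of the pool is given in the labels. Strain RNA carried Cy3 in replicate a and Cy5 in replicate b. The labels do not say whether the replicates are separate cultures; if they are not, the spread between arrays behind each p-value is technical. The strain RNA of Epl1 1:380 replicate b carries the pool's isolation protocol in its label, while the other 9 strain samples carry another one.

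Levels are given as the log2 ratio of strain over pool. A gene was called where limma's adjusted p (Benjamini-Hochberg over all features) was under 0.05 and the fold was over 1.7. The targeted gene EAF1 was lower in the eaf1 deletion than in Eaf1 1:982, by a log2 difference of -2.69 ± 0.11 (SE, adjusted p = 3.15e-05 in limma). EPL1 was higher in Epl1 1:380 (0.41) and Epl1 1:485 (0.51) than in tagged Epl1. It was also higher in the eaf1 deletion than in Eaf1 1:982 (0.45), and in Eaf1 1:982 than in tagged Epl1 (0.65 ± 0.14 SE). None of these EPL1 differences was called, and each was under the fold limit. By the adjusted p alone that in Epl1 1:485 passed (0.04 in limma), beside 15.4% of all features. With the replicate letter as a block in limma, all of them passed the adjusted p alone (0.00162, 0.000486, 0.00133 and 0.0104 in the order given). Beside them, 46.5%, 44.3%, 37.2% and 0.157% of all features passed. EPL1 was called higher in the eaf1 deletion against the pool (1.04). Between 97.4% and 98.8% of gene spots per array exceeded background in both channels. All 20 spot readings of each of the 8 genes did so, and none was saturated. Of the 7 mating-type markers measured, 3 were called higher in both Epl1 truncations against tagged Epl1 (MFA1, MF(ALPHA)1 and MF(ALPHA)2). Beside them, 2.41% of all features were called higher in Epl1 1:380 and 1.85% in Epl1 1:485. In the eaf1 deletion against Eaf1 1:982, 2 markers were called higher (MF(ALPHA)1 and MF(ALPHA)2), beside 1.94% of all features. The part of these markers in the differences below was not tested.

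PHO84, the high-affinity phosphate transporter of the plasma membrane, lay far below the pool in all 5 strains. Its log2 ratios were -2.83 and -2.54 in Epl1 1:380, -2.92 and -2.72 in Epl1 1:485, -2.72 and -2.52 in the eaf1 deletion, -2.79 and -2.41 in Eaf1 1:982, and -2.31 and -1.74 in tagged Epl1 (replicates a and b). All 10 arrays were below the pool, and both tagged Epl1 arrays were above every array of the other 4 strains. The share of all features with such a separation, also seen for SPL2 and PHM6 below, was not counted. PHO84 was 6.43-fold lower than the pool in Epl1 1:380, 7.08-fold in Epl1 1:485, 6.16-fold in the eaf1 deletion, 6.07-fold in Eaf1 1:982 and 4.07-fold in tagged Epl1. It had rank 1 from the lowest among the mean ratios of all 6377 features in every strain. limma called it in each, with adjusted p = 1.14e-05, 1.35e-05, 1.99e-05, 0.000286 and 0.00204 in the same order of strains. The deposited ratios of the authors, normalised another way, gave means of -2.61, -2.78, -2.56, -2.58 and -2.05. Epl1 1:380 replicate b, whose strain RNA has the pool's isolation protocol in its label, was at -2.54. The part of the isolation protocol in the low ratios was not tested. Growth and strain background, which may also set the strains apart from the pool, cannot be told apart with these arrays.

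**Figure D1:**
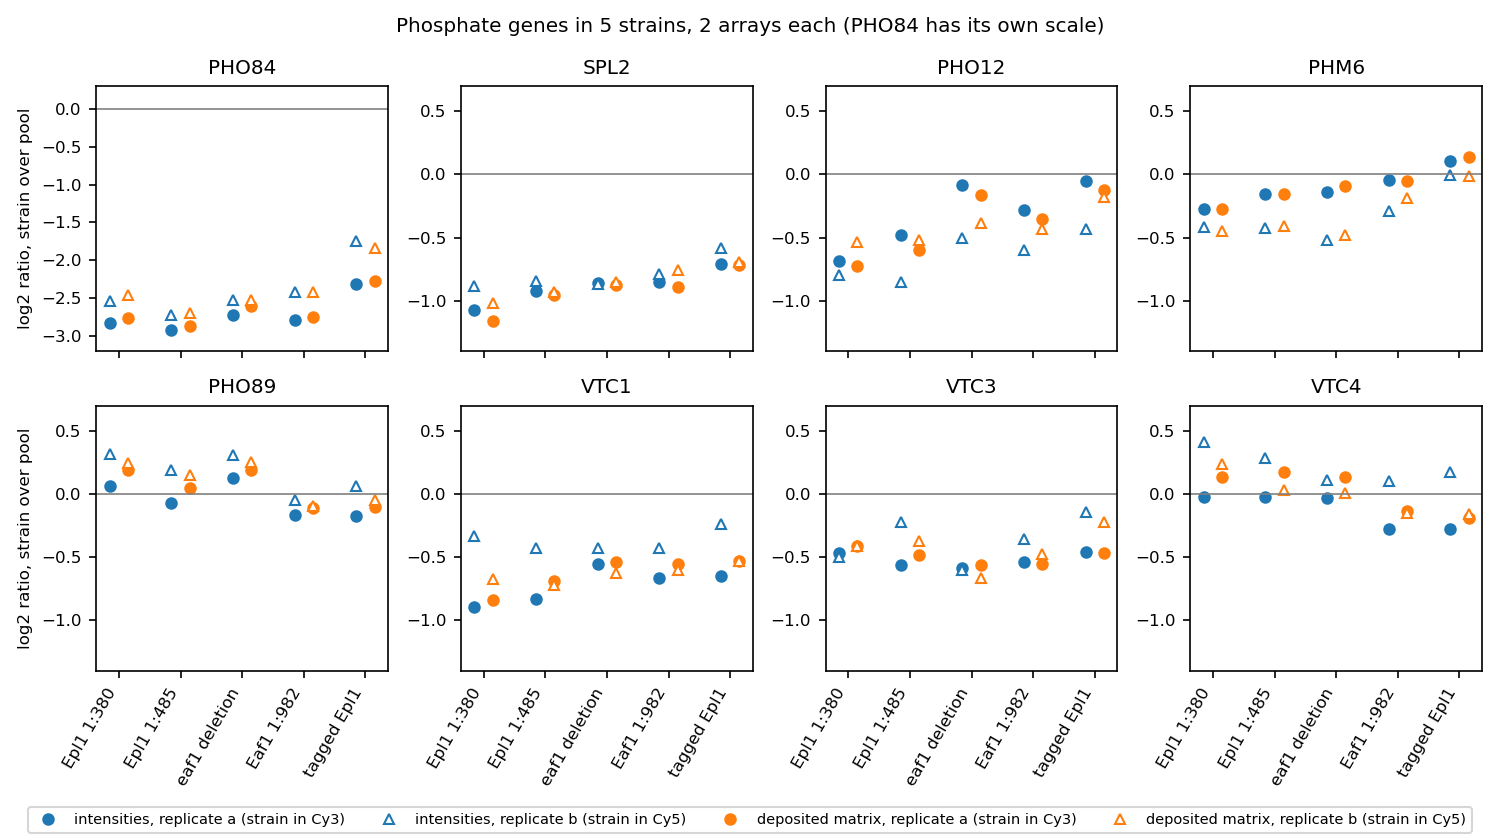
Log2 ratio of strain over pool for the 8 phosphate genes (y axis; PHO84 has its own scale) in 5 strains (x axis). Points are single arrays, filled for replicate a and open for replicate b, in blue for values from the intensities and in orange for the authors' deposited ratios. PHO84 lies between -2.92 and -1.74 on all 10 arrays (values from the intensities), and the other 7 genes lie between -1.07 and 0.41.

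SPL2, a small inhibitor that takes part in the choice between high- and low-affinity phosphate uptake, was the other gene called against the pool. Its log2 ratios were -1.07 and -0.88 in Epl1 1:380, -0.92 and -0.84 in Epl1 1:485, -0.86 and -0.87 in the eaf1 deletion, -0.85 and -0.79 in Eaf1 1:982, and -0.71 and -0.58 in tagged Epl1. The 2 tagged Epl1 arrays were again the highest of the 10. SPL2 was called lower in Epl1 1:380 (1.97-fold), Epl1 1:485 (1.84-fold), the eaf1 deletion (1.82-fold) and Eaf1 1:982 (1.77-fold). The call in Eaf1 1:982 was lost without its replicate a or b (adjusted p = 0.0818 and 0.0681). In tagged Epl1 it was 1.57-fold lower, which passed the adjusted p (0.0109 in limma) but not the fold limit.

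So 2 of the 8 genes were called lower than the pool in Epl1 1:380, 2 in Epl1 1:485, 2 in the eaf1 deletion, 2 in Eaf1 1:982 and 1 in tagged Epl1, and none higher. Of all features, 4.39%, 3.58%, 3.64%, 0.204% and 0.204% were called in those comparisons, which all share the pool. By the adjusted p alone, with no fold limit, 6, 5, 4, 2 and 2 of the 8 were lower and none higher, against 39.5%, 36.2%, 32.2%, 1.68% and 1.16% of all features in either direction. The genes added by dropping the fold limit were PHO12, PHM6, VTC1 and VTC3 in Epl1 1:380, PHO12, VTC1 and VTC3 in Epl1 1:485, VTC1 and VTC3 in the eaf1 deletion, and SPL2 in tagged Epl1. With the replicate letter as a block in the fit, 8, 6, 7, 5 and 5 of the 8 passed the adjusted p alone, beside 64.1%, 61.1%, 58.9%, 14.8% and 13.5% of all features. The medians of the 8 log2 ratios were -0.55, -0.51, -0.41, -0.44 and -0.27, beside medians within 0.01 of 0 over all features.

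**Figure D2:**
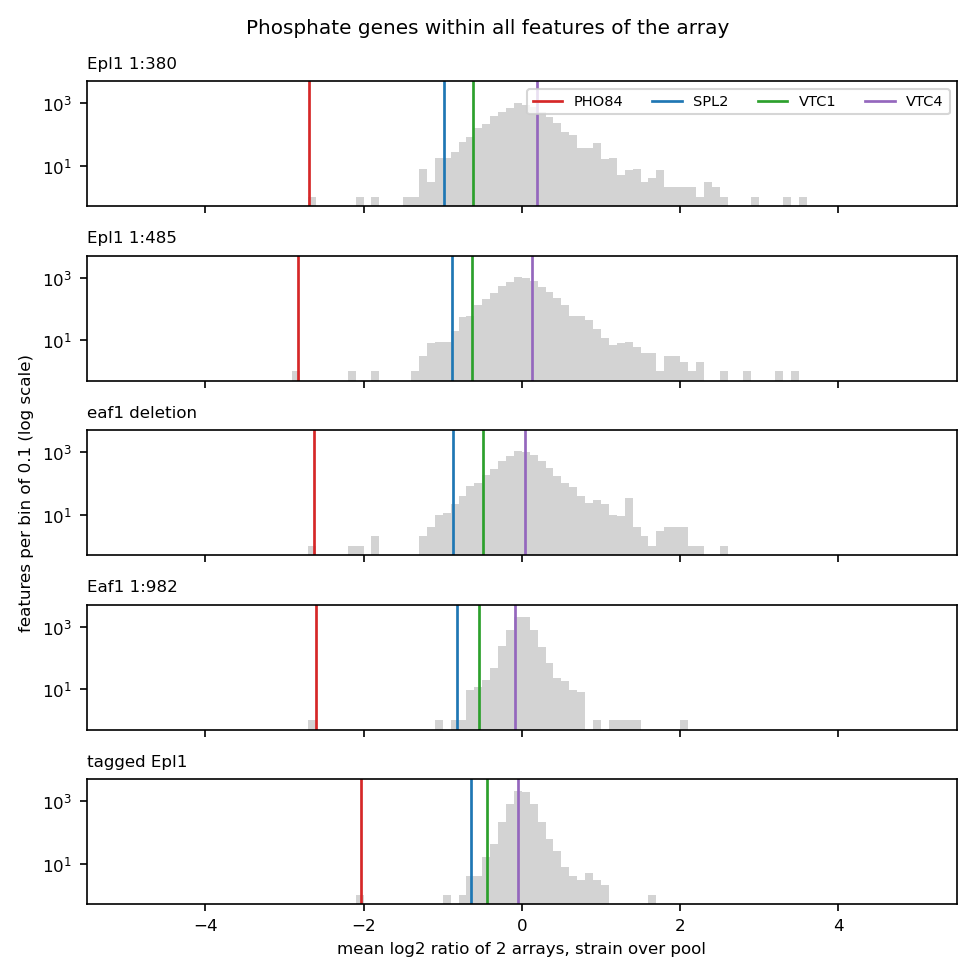
Number of features (y axis, log scale) per bin of 0.1 in the mean log2 ratio of 2 arrays, strain over pool (x axis), for each of the 5 strains, with the means of PHO84, SPL2, VTC1 and VTC4 as vertical lines. PHO84 lies at the low end in every strain (rank 1 of 6377), while VTC4 lies near the middle.

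PHO89, a plasma membrane transporter that imports phosphate together with sodium, did not share the low ratio of PHO84. Its log2 ratios were 0.06 and 0.32 in Epl1 1:380, -0.07 and 0.19 in Epl1 1:485, 0.13 and 0.31 in the eaf1 deletion, -0.17 and -0.05 in Eaf1 1:982, and -0.18 and 0.06 in tagged Epl1. It lay below the pool on 4 of 10 arrays and was called in no strain. PHO89 was dim: its Cy3 signal ran from 68.7 to 109, with a Cy3 background of up to 45.5, and only 8.2% of features were dimmer in the pool.

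PHO12, the acid phosphatase gene, lay below the pool on all 10 arrays. Its log2 ratios were -0.68 and -0.79 in Epl1 1:380, -0.48 and -0.85 in Epl1 1:485, -0.08 and -0.50 in the eaf1 deletion, -0.28 and -0.59 in Eaf1 1:982, and -0.05 and -0.43 in tagged Epl1. Replicate b was lower than replicate a in all 5 strains, with a mean gap (b minus a) of -0.32, so the ratio moved with the dye. In the deposited ratios that mean gap was -0.02. PHM6, a gene of unknown function that phosphate starvation induces, had ratios of -0.28 and -0.41 in Epl1 1:380, -0.16 and -0.43 in Epl1 1:485, -0.14 and -0.52 in the eaf1 deletion, -0.04 and -0.29 in Eaf1 1:982, and 0.10 and -0.01 in tagged Epl1. Both tagged Epl1 arrays were above the arrays of every other strain.

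VTC1, VTC3 and VTC4 encode subunits of the vacuolar transporter chaperone, which makes polyphosphate, and Vtc4 is its catalytic subunit. VTC1 had log2 ratios of -0.90 and -0.34 in Epl1 1:380, -0.83 and -0.43 in Epl1 1:485, -0.56 and -0.43 in the eaf1 deletion, -0.66 and -0.43 in Eaf1 1:982, and -0.65 and -0.24 in tagged Epl1. VTC3 had -0.47 and -0.50, -0.56 and -0.22, -0.59 and -0.60, -0.54 and -0.36, and -0.46 and -0.14 in the same order of strains. Both genes were below the pool on all 10 arrays. The VTC1 arrays of the strains overlapped, while those of VTC3 did not overlap between Epl1 1:380 and tagged Epl1 or between the eaf1 deletion and Eaf1 1:982. VTC4 had -0.03 and 0.41, -0.02 and 0.29, -0.03 and 0.11, -0.28 and 0.10, and -0.28 and 0.17, and lay below the pool on 5 of 10 arrays. For VTC1 and VTC4, replicate b was higher than replicate a in all 5 strains, by 0.35 and 0.34 on average, against 0.00 and -0.03 in the deposited ratios. The gap was 0.33 for PHO84 (0.26 in the deposited ratios) and -0.23 for PHM6 (-0.22), with the same sign in all 5 strains.

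The Epl1 truncations were set against tagged Epl1, which both comparisons share. In Epl1 1:380, 0 of the 8 genes were called (3.5% of all features were), and 4 of 8 had an unadjusted p under 0.05 in limma, beside 32% of all features. PHO84 averaged -2.69 ± 0.21 in Epl1 1:380 and -2.03 ± 0.40 in tagged Epl1 (SD, n = 2 arrays each), a log2 difference of -0.66 ± 0.21 (SE) with an adjusted p of 0.063 in limma. SPL2 averaged -0.98 ± 0.13 in Epl1 1:380 and -0.65 ± 0.09 in tagged Epl1, a difference of -0.33 ± 0.09 with an adjusted p of 0.0393. SPL2 was the 1 gene that passed the adjusted p alone, as did 18.2% of all features. That pass was lost in 15 of 24 alternatives, among them leaving out any 1 array except Epl1 1:380 replicate b (adjusted p up to 0.215), and SPL2 changed sign in 1 more.

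In Epl1 1:485, PHO84 was called lower, as were 2.54% of all features in either direction, and it was the 1 gene of the 8 to pass. It averaged -2.82 ± 0.14 in Epl1 1:485 and -2.03 ± 0.40 in tagged Epl1. The difference was -0.80 ± 0.21 (1.74-fold lower, adjusted p = 0.0371 in limma), just past the fold limit. It was -0.61 within replicate a and -0.98 within replicate b. The call was lost without tagged Epl1 replicate b (-0.51, adjusted p = 0.192), without either Epl1 1:485 array and without either eaf1 deletion array, and in the deposited ratios, where the fold fell under the limit (-0.72, adjusted p = 0.00716). No further gene passed the adjusted p alone, against 15.4% of all features.

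Arrays with the same replicate letter, and so the same dye orientation, deviated from their strain means together. With the letter as a block in the limma fit, the log2 differences are the same and their errors smaller. In Epl1 1:380 against tagged Epl1, 6 of the 8 genes then passed the adjusted p alone, beside 46.5% of all features: PHO84 (adjusted p = 0.000174), SPL2 (0.00173), PHO12 (-0.50, 0.00047) and PHM6 (-0.39, 0.00147) were lower, and PHO89 (0.25, 0.007) and VTC4 (0.25, 0.0244) higher. In Epl1 1:485 against tagged Epl1, 4 passed, beside 44.3%: PHO84 (adjusted p = 6.73e-05), PHO12 (-0.42, 0.00148), PHM6 (-0.34, 0.00379) and SPL2 (-0.23, 0.0124), all lower. The arrays of the 2 strains did not overlap for 6 genes in Epl1 1:380 and 4 in Epl1 1:485, beside 56.7% and 53.3% of all features.

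**Figure D3:**
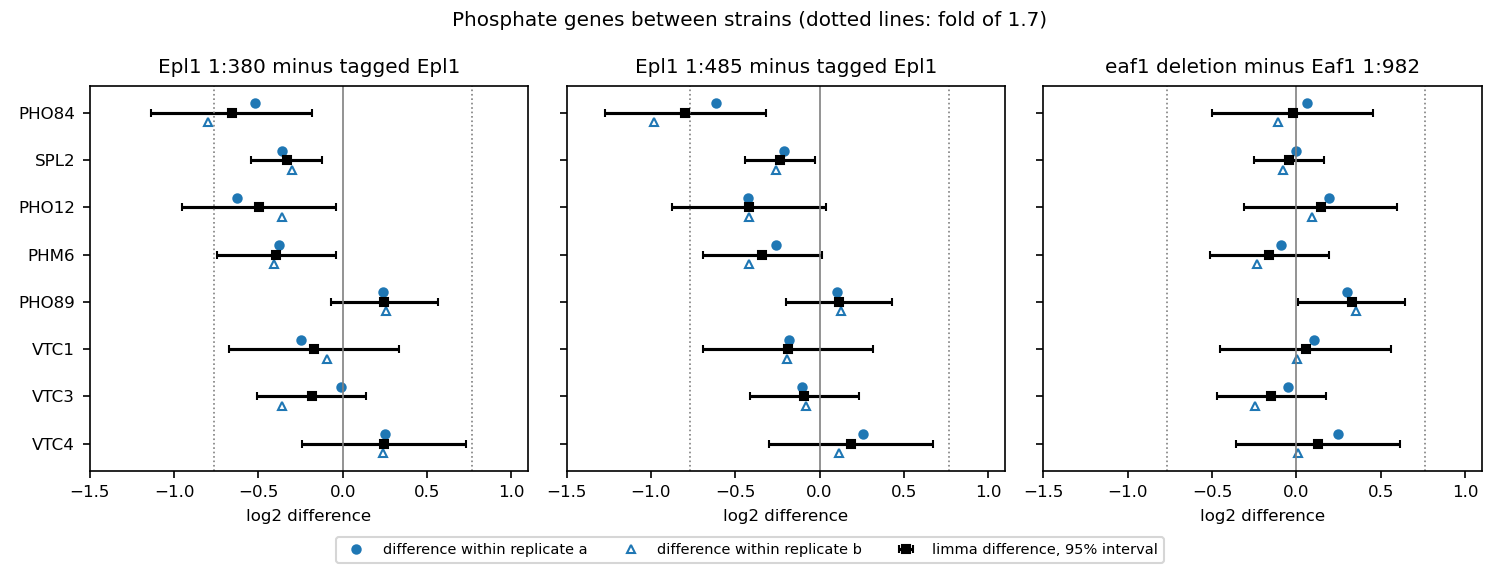
Log2 differences between strains (x axis) for the 8 phosphate genes (y axis) in 3 comparisons. Squares are limma differences with 95% intervals from the fit without a replicate block, circles and triangles the differences within replicate a and replicate b, and dotted lines a fold of 1.7. PHO84 differed by -0.66 and -0.80 in the Epl1 truncations against tagged Epl1 and by -0.02 in the eaf1 deletion against Eaf1 1:982.

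PHO84 in the eaf1 deletion lay close to its level in Eaf1 1:982, and 0 of the 8 genes were called, beside 2.56% of all features. PHO84 averaged -2.62 ± 0.14 in the eaf1 deletion and -2.60 ± 0.26 in Eaf1 1:982, a difference of -0.02 with a 95% interval from -0.50 to 0.46, which does not show that the strains are alike. By the adjusted p alone 0 of 8 passed in limma, beside 11% of all features, and 1 of 8 had an unadjusted p under 0.05, beside 25.6% of all features. That gene was PHO89, at 0.22 ± 0.13 in the eaf1 deletion and -0.11 ± 0.08 in Eaf1 1:982 (difference 0.33 ± 0.14 SE, adjusted p = 0.18). PHO89 was the 1 gene that passed with the replicate block (adjusted p = 0.00198), beside 37.2% of all features. The arrays did not overlap for 3 of the 8 genes (PHO89, SPL2 and VTC3), beside 53.7% of all features.

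The effect of the truncations, each against tagged Epl1 and averaged, was set against that of the deletion over Eaf1 1:982. Of the 8 genes 0 were called, beside 0.345% of all features, and 1 had an unadjusted p under 0.05 in limma (9.58% of all features). For PHO84 the difference of effects was -0.71 ± 0.27 (SE, adjusted p = 0.439), and for PHO12 it was -0.60 ± 0.26 (adjusted p = 0.524). With the replicate block these 2 genes passed the adjusted p alone (0.0049 and 0.00595), beside 7.7% of all features.

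The strains that serve as controls were also set against each other. The log2 difference of PHO84 in Eaf1 1:982 against tagged Epl1 was -0.57 ± 0.21 (SE), which did not pass in limma (adjusted p = 0.9997). With the replicate block in limma it passed the adjusted p (0.0392) but not the fold limit. By the adjusted p alone 0.157% of all features passed with the block. Of the 8 genes 0 were called, as were 0% of all features, and 1 had an unadjusted p under 0.05 (0.847% of all features). Between Epl1 1:380 and Epl1 1:485, 0 of 8 and 0% of all features were called, and 0 of 8 had an unadjusted p under 0.05 (0.91% of all features), with PHO84 at 0.14 (95% interval from -0.34 to 0.62). Ordered by mean, PHO84 ran from Epl1 1:485 through Epl1 1:380, the eaf1 deletion and Eaf1 1:982 to tagged Epl1, and only the last step was larger than the SE of a difference (0.21). In the mean of the 3 mutants against the mean of Eaf1 1:982 and tagged Epl1, 0 of 8 were called (2.43% of all features) and 0 passed the adjusted p alone (33.2%), with 4 of 8 at an unadjusted p under 0.05, near the 43.2% of all features. PHO84 was at -0.40 ± 0.13 (SE without the block) or ± 0.06 (SE with it), and with the block 6 of 8 passed the adjusted p alone, beside 59.1%.

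Of 30 other genes of the pathway, 27 were measured. In Epl1 1:380 against tagged Epl1, 3 of 27 were called higher and 1 lower, beside 2.41% and 1.08% of all features. The counts were the same in Epl1 1:485, beside 1.85% and 0.69%. PHM7, whose expression responds to phosphate, had log2 ratios of 1.85 and 1.36 in Epl1 1:380, 1.41 and 1.34 in Epl1 1:485, and 0.17 and 0.20 in tagged Epl1. It rose by 1.42 ± 0.14 and 1.19 ± 0.14 (SE) in the truncations. Its arrays did not overlap with those of tagged Epl1, as for 56.7% and 53.3% of all features. PHM8, a phosphatase of nucleotides and lysophosphatidic acid, rose by 1.02 ± 0.11 and 0.97 ± 0.11. PIC2, a mitochondrial carrier of phosphate and copper, rose by 1.15 ± 0.11 and 0.89 ± 0.11.

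PHO90, a low-affinity phosphate transporter, was the gene called lower in both truncations. Its log2 ratios were -0.90 and -0.59 in Epl1 1:380, -0.89 and -0.63 in Epl1 1:485, and -0.15 and 0.19 in tagged Epl1. It fell by 0.77 and 0.79 (adjusted p = 0.00964 and 0.011 in limma). PHM8 and PIC2 were also called in the eaf1 deletion against Eaf1 1:982, where 2 of 27 were higher and none lower, beside 1.94% and 0.612% of all features. These calls of PHM7, PHM8, PIC2 and PHO90 were also made with the replicate block, with adjusted p = 0.000116 or below. PHM8 was at 0.98 and 1.19 in the eaf1 deletion and 0.06 and 0.14 in Eaf1 1:982. PIC2 was at 0.82 and 1.04 in the eaf1 deletion and -0.11 and 0.13 in Eaf1 1:982. PHM7 and PHO90 were not called in that comparison but moved in the same direction as in the truncations. PHM7 was at 0.95 and 0.91 in the eaf1 deletion and 0.36 and 0.27 in Eaf1 1:982. PHO90 was at -0.52 and -0.57 in the eaf1 deletion and -0.01 and 0.02 in Eaf1 1:982. Of the 7 sensing and signalling genes measured, limma called 0 in the truncations or the deletion, beside 3.5%, 2.54% and 2.56% of all features. In each comparison 1 of the 7 had an unadjusted p under 0.05, beside 32%, 30.1% and 25.6% of all features. In the deletion that gene was not PHO4. PHO4 itself differed by -0.62 ± 0.18 in Epl1 1:380, -0.57 ± 0.18 in Epl1 1:485 (adjusted p = 0.0524 and 0.0722) and -0.30 ± 0.18 in the eaf1 deletion (0.358). With the replicate block PHO4 passed the adjusted p alone in all 3 (0.000262, 0.000475 and 0.0198), and its differences within replicates a and b were -0.73 and -0.50, -0.66 and -0.48, and -0.30 and -0.30.

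The median log2 difference over the 27 genes was 0.06 in Epl1 1:380, 0.04 in Epl1 1:485 and 0.08 in the eaf1 deletion. Over the 8 phosphate genes above it was -0.26, -0.21 and 0.02 in the same comparisons, and over all features it was within 0.01 of 0 in each.

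**Figure D4:**
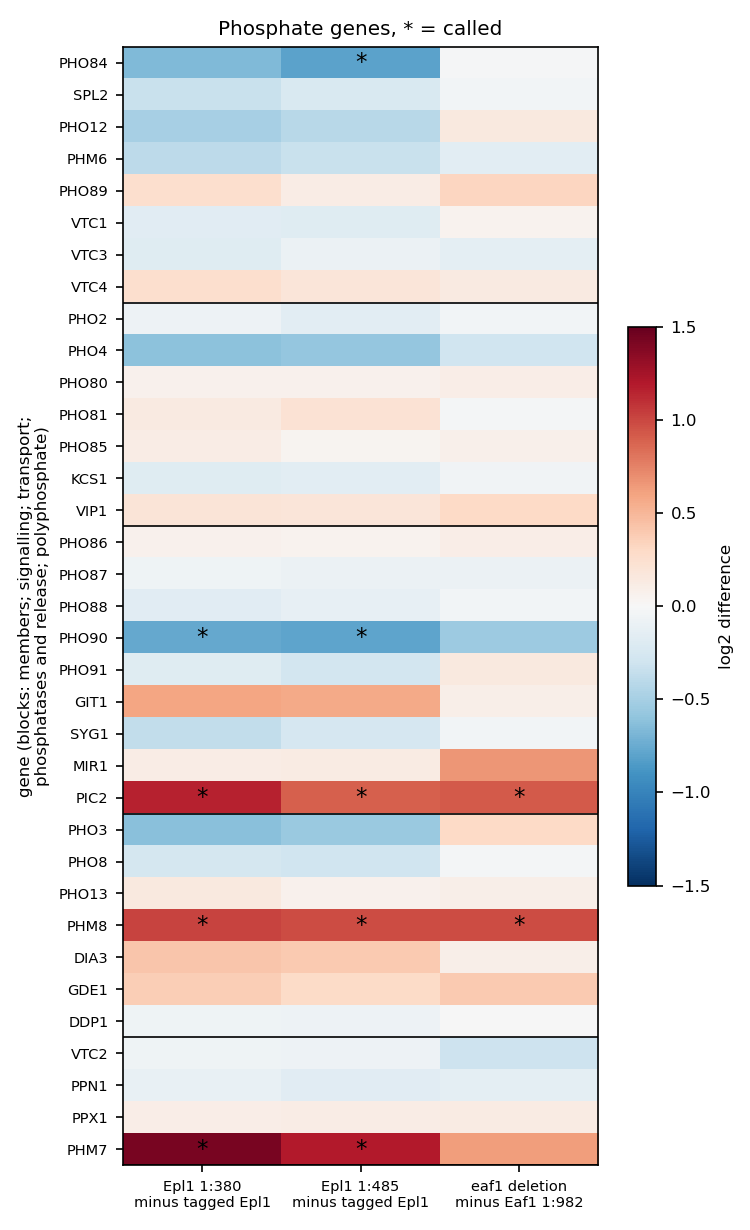
Log2 differences (colour) of the 8 phosphate genes and 27 other genes of the pathway (rows, in blocks) in 3 comparisons between strains (columns), with called genes marked by a star. PHM7, PHM8 and PIC2 were called higher in both Epl1 truncations, PHO90 lower in both, and PHO84 lower in Epl1 1:485.

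Among 150 named genes outside the pathway whose strain means spanned at least 1 on the log2 scale, those most like PHO84 over the 10 arrays, by Pearson r, were GFD2 (0.779), YHB1 (0.75), MMP1 (0.746), OPT1 (0.726) and TDA4 (0.687). The same 5 genes came out for SPL2, with r from 0.791 to 0.879, and PHO84 and SPL2 correlated at 0.871 over the 10 arrays. These 10 points share 5 strains, the pool and 2 dye orientations, so the values only describe the arrays. The strain means of PHO84 and SPL2 themselves spanned 0.80 and 0.33, and genes with spans under 1 could not be listed. In tagged Epl1 the 5 genes averaged 0.04 (GFD2), -0.34 (YHB1), -0.22 (MMP1), -0.19 (OPT1) and 0.02 (TDA4), all nearer to the pool than PHO84. In the same order they averaged -0.16, -0.42, -0.26, -0.13 and -0.06 in Eaf1 1:982. In the eaf1 deletion they averaged -0.53, -0.86, -0.84, -0.81 and -0.91. Each was thus nearer in Eaf1 1:982 to its tagged Epl1 mean than to its deletion mean. The span limit favoured such genes, since 0% of all features were called between Eaf1 1:982 and tagged Epl1. PHO84 in Eaf1 1:982 (-2.60) was nearer to the deletion (-2.62) than to tagged Epl1 (-2.03). With its span of 0.80 it was not held to that limit, so no contrast with the 5 genes can be drawn. The genes next to PHO84 on chromosome XIII, TUB3 and YML122C, lay between -0.03 and 0.34 in all 5 strains, so the low ratio of PHO84 was not seen in these neighbours. PGA3, 2 genes away, was below the pool in each strain. It averaged -0.50 in Epl1 1:380, -0.43 in Epl1 1:485, -0.45 in the eaf1 deletion, -0.12 in Eaf1 1:982 and -0.07 in tagged Epl1. ERG13, GTR1 and NDI1, also within 3 genes, lay between -0.07 and 0.32.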

How the data were processed

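The authors deposited scanner files with the intensity of signal and local background per spot and channel, per the file headers, and a matrix of log2 ratios of Cy5 over Cy3, which per the deposited protocols came from print-tip loess (span 0.4) without background subtraction and a correction of gene-specific dye bias. Here the intensities were corrected with normexp (offset 50), normalised by loess (span 0.3), turned to strain over pool and averaged per gene, which gave 6377 features. The matrix served as an alternative. Strain means were estimated by limma 3.58.1 under R 4.3.3 (5 residual and 3.11 prior degrees of freedom), and figures were drawn with Python 3.11.15. Gene names and order came from an R64 table.

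All members, EAF1 and EPL1, called genes of the pathway lists, and the 5 genes most like PHO84 and SPL2 were named. Members and lists were chosen with earlier results of these data known. Deviations of arrays with the same replicate letter correlated between strains at r = 0.637 to 0.871 over 10 pairs of strains (0.294 to 0.563 in the matrix). The letter therefore paired the arrays, and blocked values stand beside results whose outcome they change. The alternatives tried were other background corrections, signal columns, normalisations, single spots, variance settings, call limits, brighter features, the block, the matrix, and leaving out arrays; 3 settings and the pairwise differences between strains were added after seeing the data. The steps were tested on simulated data. No sequences or coordinates are given.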

Additional observations from a re-analysis of the deposited data

Results flagged for a closer look

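For 2 genes the effects of the Epl1 truncations against tagged Epl1 and the eaf1 deletion against Eaf1 1:982 differed by adjusted p alone. That was in the limma fit with the replicate block, where 7.7% of all features passed. Without the block neither gene passed in the values from the intensities. For PHO84 the difference of effects was -0.71 (adjusted p = 0.0049 with the block, 0.439 without it, 0.112 in the deposited ratios). For PHO12 it was -0.60 (adjusted p = 0.00595 with the block, 0.524 without it, 0.0262 in the deposited ratios). Within replicate a the differences were -0.63 and -0.72, and within replicate b -0.78 and -0.48. Between Eaf1 1:982 and tagged Epl1, the strains from which the 2 effects are measured, PHO84 differed by -0.57 ± 0.21 (SE) and was not called (adjusted p = 0.9997, 0.9998 in the deposited ratios and 0.0392 with the block). By the adjusted p alone, 0.157% of all features passed in that comparison with the block.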

How the results depend on the processing

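PHO84 kept its call against the pool in all 5 strains under each alternative that tested it. With brighter features only, 4 of the 8 genes were tested, PHO84 and SPL2 not among them, and 0 were called in any of these strains. The 1 call in Epl1 1:485 against tagged Epl1 (PHO84) could not be tested with brighter features only, which left PHO84 out. It was lost, to 0, with plain background subtraction, print-tip loess without background correction, median centring and centring on added RNA controls. It was also lost with the deposited matrix, the matrix with the replicate block, trend and robust eBayes, and only the groups compared. Leaving out single arrays gave 0 to 1 calls in Epl1 1:485 against tagged Epl1. It gave 0 to 1 in Epl1 1:380 against tagged Epl1 (1 without tagged Epl1 replicate a). In Eaf1 1:982 against the pool it gave 1 to 2 (1 without either of its arrays).

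Centring on added RNA controls gave 5 calls against the pool in Epl1 1:380, Epl1 1:485 and Eaf1 1:982 and 4 in tagged Epl1, where it moved the median of all genes by -0.28, -0.36, -0.58 and -0.55. It turned SPL2 in Epl1 1:380 against tagged Epl1 to 0.0335 (adjusted p = 0.936 in limma), where the median of all genes moved by 0.29. Plain subtraction gave 2 calls in tagged Epl1 against the pool, also with the replicate block. The shares of all features called under added RNA centring and plain subtraction are not given here, so these counts cannot be judged beside them. With no fold limit the count was 1 in Epl1 1:380 against tagged Epl1 (18.2% of all features). Against the pool it was 6, 5, 4 and 2 in Epl1 1:380, Epl1 1:485, the eaf1 deletion and tagged Epl1. The shares of all features were 39.5%, 36.2%, 32.2% and 1.16%.

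In all, 3 settings were chosen after seeing the data: plain subtraction with the replicate block, and the replicate block and the deposited matrix with no fold limit. With the replicate block and no fold limit, 6 and 4 genes passed in Epl1 1:380 and Epl1 1:485 against tagged Epl1 (46.5% and 44.3% of all features). In the eaf1 deletion against Eaf1 1:982 the count was 1 (37.2%), and in Eaf1 1:982 against tagged Epl1 it was 1 (0.157%). It was 6 in the mean of the mutants (59.1%) and 2 in the difference of effects (7.7%). Against the pool it was 8, 6, 7, 5 and 5 (Epl1 1:380, Epl1 1:485, eaf1 deletion, Eaf1 1:982, tagged Epl1), where 64.1%, 61.1%, 58.9%, 14.8% and 13.5% of all features passed. With the matrix and no fold limit the counts were 7, 5 and 2, then 7 in the mean of the mutants, 1 in the difference of effects, and 8, 6, 7, 5 and 4 against the pool. The shares of all features were 40.8%, 37%, 33.6%, 55%, 5.93%, 60.4%, 57.9%, 55.2%, 12.3% and 8.26% in the same order. With the fold limit the replicate block changed no count. The cause of these changes was not tested. With 2 arrays per strain, small differences are within the spread between arrays, and the weak signals of PHO89 limit its ratios.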
